A study of Mus musculus with 4 samples.

Results

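In the mouse colon, 14487 autosomal bins of 200 bp had a methylation level at least 30 points lower at postnatal day 21 (P21) than at birth (P0) both in intestinal stem cells (ISCs) and in differentiated epithelial cells. They were 0.424% of the 3418450 bins that had at least 2 CpGs and at least 20 methylation calls in each of 4 libraries, and adjacent ones merged into 12437 regions. These bins, called shared-loss bins here, were chosen on the levels of those 4 libraries, so the losses themselves are given as a description and were not tested. A level is the number of methylated calls in percent of all calls in the bin. Taken singly, 37989 eligible bins (1.11%) lost 30 points or more in ISCs and 34903 (1.02%) did so in differentiated cells. Both numbers include the 14487 shared-loss bins.

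Methylation of cytosine at CpGs is copied onto the new strand after replication by DNMT1, and it is lost where copying does not keep up with cell division or where TET enzymes oxidise it. Promoters with CpG islands are mostly free of methylation in all cell types, whereas distal enhancers, which are poor in CpGs, are typically methylated until transcription factors occupy them. The colonic epithelium is renewed by Lgr5-positive stem cells at the crypt base under Wnt signalling, and its exposure to microbes, milk lipids and solid food changes between birth and weaning.

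The cells came from the colon of mice whose strain the labels give as C57, and in which EGFP and CreER were driven by the endogenous Lgr5 gene. ISCs were sorted as Lgr5-EGFP+ and differentiated cells as EpCAM+ and Lgr5-EGFP-, each at P0 and at P21, with no other allele or treatment. The 4 groups, ISC P0, differentiated P0, ISC P21 and differentiated P21, had 1 library each, made by whole-genome bisulfite sequencing of DNA pooled from litters at P0 and from reporter-positive offspring at P21. There were therefore no replicates, and differences between groups have no animal-to-animal spread beside them. This reporter is known for patchy activity in the gut, so a gate on EGFP can leave Lgr5-expressing cells among the EGFP-negative ones. Per the study's methods, the reporter mice were crossed with wild-type C57 mice. Whether every pup of the P0 litters carried the reporter is not stated. Lgr5-expressing cells of pups without it would be EGFP-negative too.

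The total number of calls was between 1023427645 and 1188114423 per library, but bins of more than 1000000 calls, between 31 and 32 per library, held 52.8% to 66.4% of the calls in eligible bins. No shared-loss bin was among them, and their deepest held 1407 calls. Their median number of calls was 63 in ISC P0, 66 in ISC P21, 99 in differentiated P0 and 81 in differentiated P21, close to the medians of 64, 67, 98 and 82 over all eligible bins. The labels were checked on promoters, taken as the bins within 1000 bp of a transcription start site (TSS). The 8 epithelial markers had a median promoter level of 2.61% to 3.55% in the 4 libraries, and the 10 immune markers with a value had a median of 81.0% to 82.7% at both ages. Promoter level does not measure the share of a cell type, and Coro1a, an actin regulator of leukocytes, was at 7.31% to 11.2% in all libraries. Among the epithelial markers, Hnf4a, a nuclear receptor that maintains enterocyte identity, had a promoter level of 35.4% in ISC P0, 32.6% in differentiated P0, 13.5% in ISC P21 and 13.6% in differentiated P21, and 1 shared-loss bin lay in it.

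The sequences below, from the mm9 assembly on the forward strand, come from the longest shared-loss regions that lay wholly in introns. They are richer in CpGs than most shared-loss bins, of which the median held 3. Each sequence is the 200-bp bin with the most CpGs of its region, and the capitals mark the CpGs whose methylation was read. The first Vdr bin ends in the C of a further CpG, which is counted but not in capitals.
Vdr intron 1, chr15:97736001-97736200: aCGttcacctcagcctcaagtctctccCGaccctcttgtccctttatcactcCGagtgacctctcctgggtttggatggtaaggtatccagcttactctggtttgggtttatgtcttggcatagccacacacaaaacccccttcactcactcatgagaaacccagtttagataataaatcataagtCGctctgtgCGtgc
Vdr intron 1, second region, chr15:97732001-97732200: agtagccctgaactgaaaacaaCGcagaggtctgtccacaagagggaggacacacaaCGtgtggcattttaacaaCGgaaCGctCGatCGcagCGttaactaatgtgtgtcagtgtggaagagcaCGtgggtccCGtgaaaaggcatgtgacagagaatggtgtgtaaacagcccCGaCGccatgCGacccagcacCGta
Axin2 intron 2, chr11:108788401-108788600: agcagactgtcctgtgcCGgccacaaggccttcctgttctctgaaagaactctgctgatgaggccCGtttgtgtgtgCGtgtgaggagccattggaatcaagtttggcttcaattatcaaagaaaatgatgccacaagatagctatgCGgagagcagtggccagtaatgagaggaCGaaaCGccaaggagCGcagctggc
Lrig1 intron 1, chr6:94636401-94636600: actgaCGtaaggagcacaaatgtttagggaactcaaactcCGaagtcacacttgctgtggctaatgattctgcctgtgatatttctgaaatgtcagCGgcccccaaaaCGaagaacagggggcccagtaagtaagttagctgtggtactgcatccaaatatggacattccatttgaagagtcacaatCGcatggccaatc
Apart from the second Vdr bin, which held 13 CpGs, these bins held 5 to 7 CpGs, fewer than a bin of a CpG island usually has. The first Vdr bin was at 93.8% in ISC P0, 80.7% in differentiated P0, 11.1% in ISC P21 and 8.82% in differentiated P21, from 27 to 83 calls. The Lrig1 bin was at 89.1%, 84.7%, 4.24% and 12.4% in the same order, from 128 to 229 calls. The Axin2 bin was at 87.7% in ISC P0, 82.1% in differentiated P0, 11.0% in ISC P21 and 16.7% in differentiated P21.

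At P0 the shared-loss bins were partly rather than fully methylated. The median over them was 67.6% for ISCs and 67.9% for differentiated cells, against 85.7% and 85.5% over all eligible bins and 87.1% and 86.9% over the 3103733 eligible bins that could have passed, those with at least 30% in both populations at P0. Only 2264 shared-loss bins (15.6%) were at 80% or more in both populations at P0, while 56.9% of the eligible bins were. At P21 the median was 19.6% in ISCs and 20.5% in differentiated cells, and 5974 bins (41.2%) were under 20% in both. A switch from 80% or more to under 20% in both populations was uncommon, with 167 bins (1.15%).

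**Figure D1:**
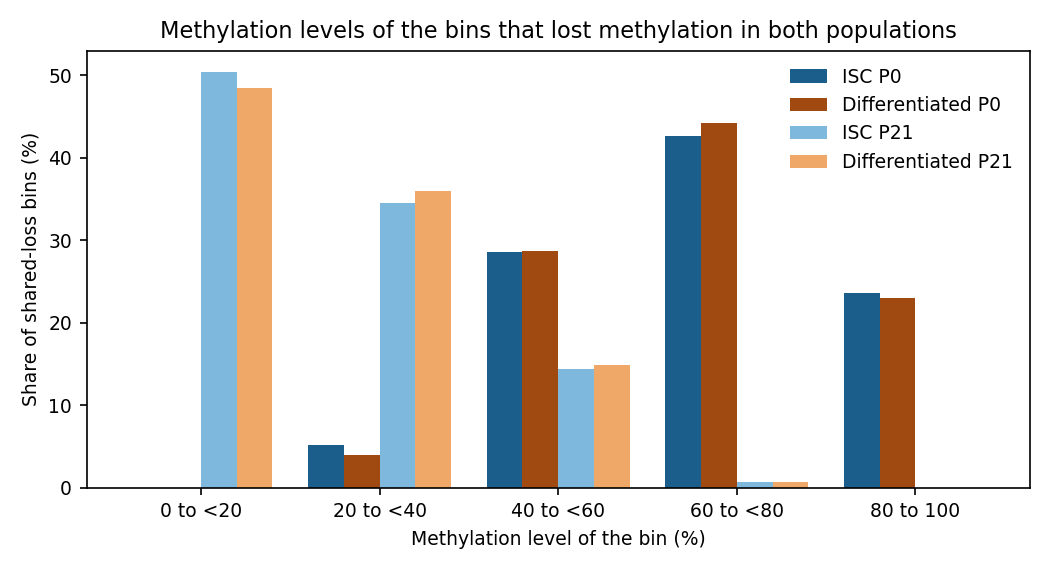
Share of the 14487 shared-loss bins (vertical axis, percent) in 5 classes of methylation level (horizontal axis, percent) in each of the 4 libraries. At P0 most bins lay between 40% and 80% in both populations, and at P21 50.4% of them in ISCs and 48.4% in differentiated cells lay under 20%.

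The median size of the loss was nearly the same in the populations, but the rule set the same lower limit on both losses. Closeness of the medians, and of the losses within a bin, therefore follows in part from the choice of bins. How far it goes beyond that choice was not tested. Whether the ISCs and differentiated cells of an age came from the same pool of mice is not stated outright, so the losses may not come from separate sets of animals. The median difference between P0 and P21 was 42.5 points in ISCs and 42.1 points in differentiated cells, and the median of the difference between the 2 losses of a bin was 0.152 points, with quartiles of -6.70 and 7.31. In 65.0% of the bins the losses lay within 10 points of each other. The loss was larger by over 15 points in ISCs in 1435 bins and in differentiated cells in 1233 bins. Both losses reached 40 points in 5779 bins (39.9%), 50 points in 2199 (15.2%), 60 points in 701, 70 points in 165 and 80 points in 29.

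Since the threshold lies in a continuous distribution, many bins sat just on either side of it. There were 2414 shared-loss bins whose smaller loss was 30 to 32 points and 2917 eligible bins at 28 to 30 points. The 4 bins closest inside, near Nr2f2, Mgst1, Glp1r and 2310007B03Rik, each had a smaller loss of 30 points. The 4 closest outside, near Mbp, Aktip, Specc1 and Gm9947, had smaller losses of 29.9948 to 29.9968 points. The Mgst1 bin, 2606 bp from the start of this glutathione transferase gene, was at 60% in ISC P0, 12.3% in ISC P21, 46.7% in differentiated P0 and 16.7% in differentiated P21, from 45 to 66 calls. The Aktip bin, just outside, was at 85.2%, 39.2%, 74.6% and 44.6% in the same order, from 74 to 122 calls.

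The loss was shared by the CpGs within a bin. Of the 48806 CpGs in shared-loss bins, 46131 had at least 5 calls in every library, and 97.0% of these had a lower level at P21 in both populations, 88.5% by over 15 points in both. In 11548 of the 12679 bins (91.1%) in which every CpG had that depth, each CpG was lower at P21 in both populations, and in 8676 (68.4%) each was lower by over 15 points in both. These CpGs are part of the values that chose the bins, so their agreement is a description.

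Stem cells and differentiated cells were next compared within each age, a contrast that was not used in choosing the bins, though it reads the same libraries. The median of the differentiated level minus the ISC level over the shared-loss bins was 0.235 points at P0 and 0.444 at P21, against -0.151 and -0.352 points over all eligible bins. For each bin the calls were set against each other with Fisher's exact test (two-sided), adjusted by Benjamini-Hochberg over all eligible bins, and a bin was called at an adjusted p below 0.05 and a difference over 15 points. At P0 differentiated cells were higher in 111 shared-loss bins (0.766%, against 0.35% of all eligible bins) and lower in 75 (0.518%, against 0.267%). At P21 they were higher in 68 (0.469%, against 0.0875%) and lower in 26 (0.179%, against 0.133%). With 1 library a group this test compares libraries, not conditions. It also takes every call as independent, although a read can give calls on several CpGs. Its p-values can therefore be too small. Bins of intermediate level have the widest counting error, and before any test 13.7% of the shared-loss bins differed by over 15 points at P0 and 9.47% at P21, against 7.90% and 6.92% of all eligible bins.

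The called bins that differed most between the populations were ranked at each age, with chromosome 18 left out. Those described here were picked after their values were seen, so that a reader can see what an unequal loss looks like. Of the ranked bins higher in differentiated cells at P21, the AI464131 and Ido1 bins had the widest gaps. A bin 34020 bp from the start of Ido1, which encodes a tryptophan-degrading enzyme, was at 84% in ISC P0, 84.8% in differentiated P0, 6.25% in ISC P21 and 53.1% in differentiated P21 (Fisher's exact test with Benjamini-Hochberg adjustment, adjusted p = 0.000119). A bin of 6 CpGs within 6808 bp of the start of AI464131 was at 95.4%, 97.2%, 17.1% and 64.8% in the same order (adjusted p = 0.0112 by Fisher's exact test). These ISC levels at P21 were far below those of differentiated cells. The widest gap of this ranking at P21 had the opposite direction, in a bin 20492 bp from the start of Ccdc91. That bin held 9 CpGs and was at 100%, 100%, 69.4% and 15.6% in the same order, from 27 to 49 calls (adjusted p = 0.00501 by Fisher's exact test). Those calls can come from far fewer molecules than their number. At P0 the widest gap was in a bin 365567 bp from the start of Mllt3, at 36% in ISCs and 86.2% in differentiated cells (adjusted p = 0.00591 by Fisher's exact test). The widest with differentiated cells lower was in a bin 196885 bp from the start of Cdca7, a gene of the Wnt stem cell list below, at 97.7% in ISCs and 53.1% in differentiated cells (adjusted p = 0.00275 by Fisher's exact test).

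The regions with the most bins give the clearest view of single loci, because their levels rest on the calls of several bins. Nearly all regions were short. A single bin made up 10824 of the 12437 regions (87.0%), 1285 regions had 2 bins, 253 had 3, 56 had 4, 8 had 5, 7 had 6 and 4 had 7. The 12 longest, of which 11 are described next, held 5 to 7 bins, the last of them (Rnf43) taken for its larger mean loss among the 8 tied at 5 bins, and every one of them overlapped an intron of a protein-coding gene. Intervals below are 95% Wilson intervals, and they cover counting error only, since PCR-amplified reads without molecular identifiers are not independent molecules.

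Nuclear receptor genes held 3 of these 12 regions. Vdr encodes the vitamin D receptor, and the first of its regions named here lay in intron 1, at chr15:97735601-97737000 (mm9), with 24 CpGs. The centre of its bin nearest to the TSS was 1840 bp away. This region was at 87.4% (interval 83.9 to 90.3) in ISC P0, 86.6% (83.7 to 89.0) in differentiated P0, 11.4% (8.62 to 14.9) in ISC P21 and 6.38% (4.62 to 8.74) in differentiated P21. A second region of the same intron, at chr15:97731001-97732400 with 37 CpGs, stopped at an intermediate level, with 83.3%, 84.6%, 42.5% and 45.5% in the same order. Ppard encodes a receptor for fatty acids, and the region in its intron 2, at chr17:28416601-28417800, was at 72.0%, 71.7%, 16.7% and 16.8%. For that region the nearest TSS was the start of Fance, 32806 bp from the centre of the nearest bin. The nearest start thus need not belong to the gene a region lies in.

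Wnt feedback and stem cell genes held another 3. Axin2, a scaffold of the complex that degrades beta-catenin and a Wnt target itself, had a region of 33 CpGs in intron 2, at chr11:108787801-108789200. It was at 80.3% (76.9 to 83.3) in ISC P0, 76.7% (74.1 to 79.1) in differentiated P0, 17.6% (14.8 to 20.8) in ISC P21 and 19.6% (16.7 to 22.7) in differentiated P21. Rnf43, a ubiquitin ligase that removes Wnt receptors from the cell surface, had the lowest P21 level among the ISC values of the 12 regions, with 66.1%, 66.4%, 2.21% and 4.21% in intron 2 at chr11:87490801-87491800. Lrig1 encodes a transmembrane protein that restrains growth factor receptors and marks crypt stem cells. Its region in intron 1, at chr6:94636201-94637400, was at 75.1%, 78.3%, 5.43% and 7.15%. At P21 the levels of ISCs and differentiated cells differed by 1.92 points in the Axin2 region, 2.0 points in the Rnf43 region and 1.72 points in the Lrig1 region.

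Nqo1, a quinone reductase of the oxidative stress response, was at 78.1% in ISC P0, 76.0% in differentiated P0, 25.5% in ISC P21 and 30.7% in differentiated P21 in intron 1, at chr8:109925401-109926600. Adck3, which encodes a kinase-like protein of coenzyme Q synthesis, was at 72.1%, 68.3%, 22.8% and 15.9% in the same order in intron 1, at chr1:182123601-182124800. At P21 the Nqo1 region had the larger value in differentiated cells and the Adck3 region in ISCs.

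The region of Pigr was the one of the 12 at a TSS. Pigr encodes the receptor that carries polymeric IgA through the epithelium into the lumen. Its region, at chr1:132722801-132724000, ran from upstream DNA through exon 1 into intron 1. The centre of the bin nearest to the TSS was 40 bp away. This region was at 77.9% (73.4 to 81.8) in ISC P0, 76.1% (72.4 to 79.5) in differentiated P0, 20.3% (16.5 to 24.7) in ISC P21 and 4.13% (2.77 to 6.12) in differentiated P21. The intervals of the populations overlapped at P0 and did not overlap at P21, where differentiated cells were 16.1 points lower. Irf8, known as an interferon regulatory factor of myeloid and B cells, had a region from intron 1 to intron 2, at chr8:123262801-123264000, which also lay in an intron of the overlapping model Gm20388. It was at 66.3%, 65.6%, 6.93% and 5.29% in ISC P0, differentiated P0, ISC P21 and differentiated P21. Nrp2, a receptor for semaphorins and VEGF, was at 62.1%, 51.8%, 7.39% and 7.57% in intron 1, at chr1:62751401-62752600, and was thus 10.3 points higher in ISCs at P0 and level at P21.

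**Figure D2:**
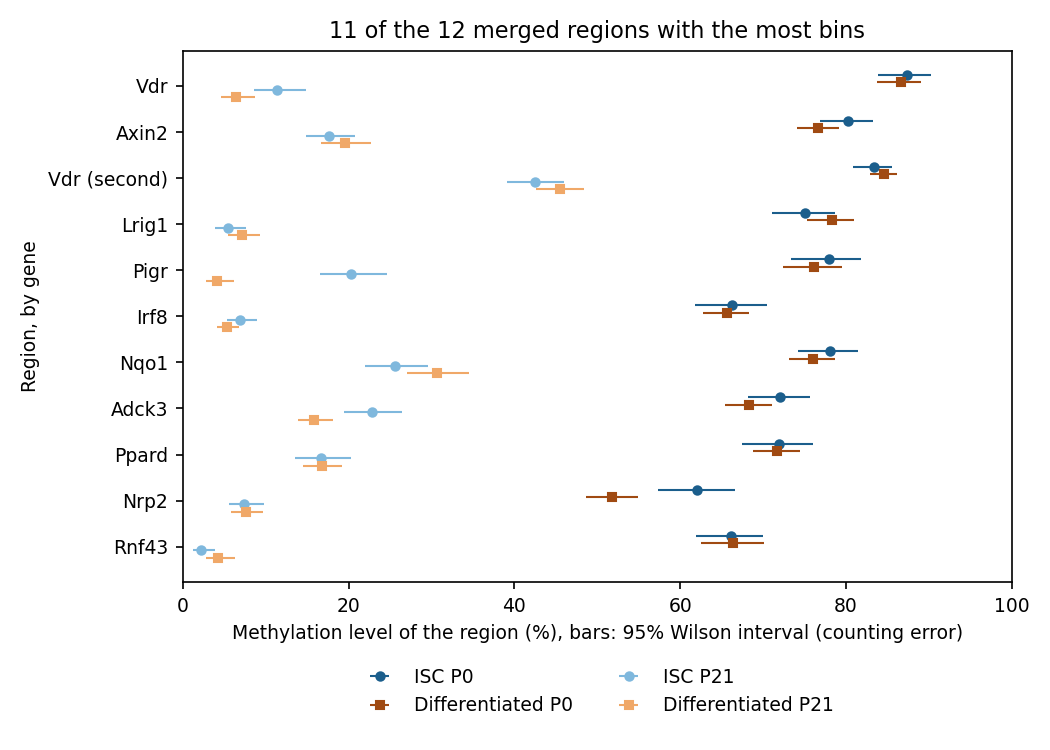
Methylation level (horizontal axis, percent) of 11 of the 12 regions with the most bins (vertical axis, by gene) in the 4 libraries, with bars for 95% Wilson intervals. In every region drawn both P21 levels lie left of both P0 levels, as the rule required, and the P21 points of Pigr stand apart from each other at 20.3% and 4.13%.

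The flanks of the regions were read in eligible bins that were not shared-loss bins themselves, so a smaller loss there follows in part from the rule. In the first bin beside a region the mean level was 60.1% in ISC P0 and 46.2% in ISC P21, and 60.6% and 46.1% in differentiated cells, so the mean loss there was 13.9 and 14.5 points. At the second bin it was 6.80 points in ISCs and 7.13 points in differentiated cells, and at 1000 bp it was 1.88 and 2.28 points. Over all eligible bins the mean loss was 0.213 points in ISCs and 0.632 points in differentiated cells. At P0 the mean of the flanks was 70.1% in both populations at 1000 bp. The P0 mean of the shared-loss bins, 66.8% in ISCs and 67.1% in differentiated cells, is not comparable with the flanks, since the rule required at least 30% at P0 of the shared-loss bins and set no such limit on the flanks.

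**Figure D3:**
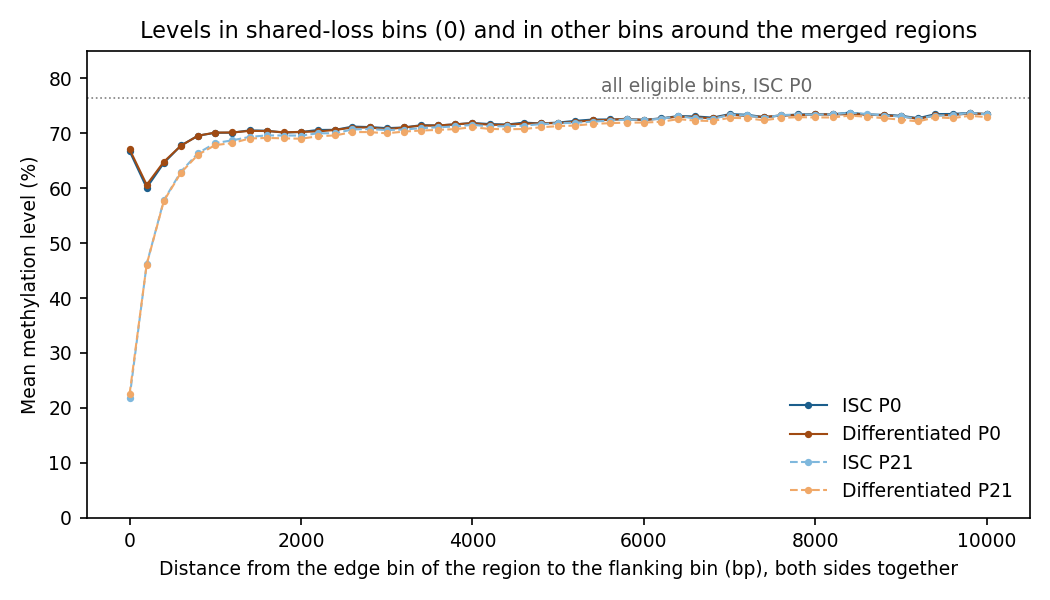
Mean methylation level (vertical axis, percent) of the shared-loss bins, drawn at 0, and of other eligible bins at increasing distance (horizontal axis, bp) from the merged regions, both sides together, in the 4 libraries. The P0 and P21 curves are 13.9 points apart in ISCs in the first flanking bin and 1.88 points apart at 1000 bp, and the curves of ISCs and differentiated cells of an age lie on each other.

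Part of the shared-loss bins lay near DNA that was already low at birth. A bin under 20% in both populations at P0 was found within 1000 bp of 4238 shared-loss bins (29.3%), against 8.31% of the bins that could have passed. These sets were not matched for their own P0 level, whose median in ISCs was 67.6% and 87.1%. Read the other way, 1.64% of the bins that could have passed with such a neighbour were shared-loss bins, and 0.360% of those without one were. At P21 a bin under 20% in both populations lay within 1000 bp of 54.6% of the shared-loss bins, against 9.79% of the bins that could have passed, and the low bin may itself be a shared-loss bin. The other 10249 shared-loss bins had no such low bin nearby at P0. Among the 2264 shared-loss bins at 80% or more in both populations at P0, 468 (20.7%) had one. The share over all eligible bins at that level was not computed, so this value has no background beside it.

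Shared-loss bins lay nearer to genes than other bins but seldom at the start site itself. Their median distance to the nearest TSS of a protein-coding gene was 26719 bp, against 40910 bp over all eligible bins and 44879 bp over those that could have passed. Measured to the starts of all annotated transcripts of any gene type, the medians were 12490, 18685 and 20544 bp. Within 1000 bp of a TSS lay 383 of them (2.64%, against 3.77% of eligible bins and 1.33% of those that could have passed). Between 1000 and 5000 bp lay 14.5%, against 8.39% of eligible bins, and beyond 100000 bp lay 17.8%, against 28.9%. They were upstream of the nearest TSS in 40.3% of cases, close to the 42.0% of eligible bins. By annotation, 47.5% were intronic (eligible 40.6%), 18.5% lay in a first intron (eligible 11.3%), 46.6% lay outside genes (eligible 52.1%), and 1.77% fell in the 5' region of a gene, less than the 2.64% of eligible bins and more than the 1.02% of those that could have passed. Nearness to genes was not particular to the loss, since the 2763 bins that gained 30 points or more in both populations had a median distance of 24005 bp, with 15.9% between 1000 and 5000 bp, 54.7% in introns and 19.7% in first introns.

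**Figure D4:**
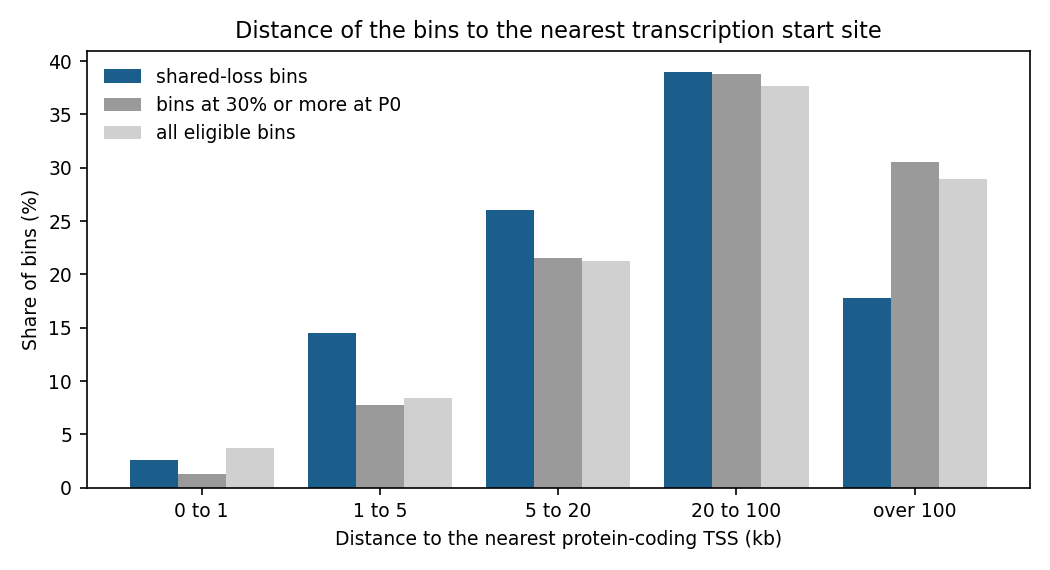
Share of bins (vertical axis, percent) by distance to the nearest protein-coding TSS (horizontal axis, kb) for shared-loss bins, for bins at 30% or more in both populations at P0, and for all eligible bins. Shared-loss bins have a larger share between 1 and 5 kb (14.5%) than all eligible bins (8.39%) and a smaller one over 100 kb (17.8% against 28.9%).

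CpG islands took almost no part in the loss. Only 35 shared-loss bins (0.242%) were in a CpG island, here a stretch covered by windows of up to 500 bp with 25 CpGs or more, against 4.13% of eligible bins and 1.51% of those that could have passed. Shores, within 2000 bp of an island, held 8.32% of the shared-loss bins, against 6.56% of eligible bins. The median number of CpGs per bin was 3 in shared-loss bins and in eligible bins, but 10 or more CpGs were found in 0.469%, against 3.50% of eligible bins and 1.73% of those that could have passed. GC content was alike, with a median of 48% against 47.5%, and the share of eligible bins that were shared-loss bins was highest at a GC content of 55% to 60%, with 0.530%. By chromosome this share ran from 0.369% on chromosome 14 to 0.511% on chromosome 11. For comparison, the gaining bins were in CpG islands in 7.49% of cases and in shores in 16.6%.

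The regions were clustered along the chromosomes. An eligible bin next to a shared-loss bin was itself one in 27.3% of cases, 64.4 times the share over all eligible bins. The share was 13.9% at 400 bp, 4.002% at 1200 to 2000 bp, 1.80% at 5200 to 10000 bp and 0.510% between 200000 and 500000 bp. Neighbouring bins can share reads, which can add to the shares at the shortest distances. Another region lay within 10000 bp of 40.7% of the regions, and the median distance to the nearest one was 18400 bp. No such share was computed for other bins, and it varies with the number of regions. It was 51.8% for the 32488 regions at a loss of 20 points and 29.9% for the 5041 regions at 40 points. Clusters of 3 or more regions, each within 10000 bp of the next, numbered 601 and held 2343 regions (18.8%), and 107 of the clusters had 5 or more. Another 7380 regions (59.3%) stood alone.

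Of the 10 largest clusters, 8 overlapped protein-coding genes. At Lrig1, 38 regions with 69 bins spread over 65000 bp (chr6:94579001-94644000), and 39.9% of the 173 eligible bins in that span were shared-loss bins. At Vdr, 24 regions with 50 bins covered 48800 bp (chr15:97714601-97763400), with 30.3% of eligible bins. The cluster at Rgmb, a co-receptor for bone morphogenetic proteins, was the densest of the 10 largest, with 21 of 46 eligible bins (45.7%) in 17600 bp at chr17:15947801-15965400. A cluster of 16 regions in 21600 bp overlapped no protein-coding gene (chr15:85499401-85521000), and the nearest start was that of Ppara, a receptor that controls fatty acid oxidation. The others among the 10 lay at Rnf43 (13 regions), at Nr2e3, a nuclear receptor gene known from photoreceptors (13 regions), at Aldh1b1, a mitochondrial aldehyde dehydrogenase gene (11 regions), between Eed and Picalm (11 regions), in Sorcs2, a sortilin-family receptor gene (10 regions), and over Fgfr2 and Oat (10 regions).

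Counted by nearest TSS, the regions belonged to 6103 genes, of which 3405 had 1 region, 472 had 5 or more and 62 had 10 or more. Lrig1 led with 52 regions and 85 bins, of which 69 lay in the gene. Over these bins the level was 64.3% in ISC P0, 71.1% in differentiated P0, 14.4% in ISC P21 and 17.5% in differentiated P21. Single bins near Lrig1 ranged from 30.5% to 95.5% in ISC P0 and from 0% to 54% in ISC P21, so the shared loss covered a wide span of starting levels. Vdr followed with 24 regions and 50 bins, Rgmb with 22 and 32, Ppara with 20 and 34, Casz1, a zinc finger transcription factor gene, with 18 and 27, and Axin2 with 16 and 31. At Ppara the bins were nearly all upstream, 33 of 34, and stood at 74.4% in ISC P0, 75.02% in differentiated P0, 21.0% in ISC P21 and 17.9% in differentiated P21. A gene in a gene-poor stretch collects more regions by this count, and for Rgmb the farthest bin was 392351 bp from the TSS.

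Gene lists were then read for shared-loss bins within a gene or up to 10000 bp upstream. Over all genes, 4764 of 21087 protein-coding genes with an eligible bin there (22.6%) had at least 1, and 0.484% of those eligible bins were shared-loss bins. The lists were chosen with earlier results of these data known, so their shares are descriptions. Longer genes offer more bins, which the share of bins takes into account and the share of genes does not.

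The list of stem cell and Wnt feedback genes had the highest share, with 19 of 25 genes and 4.18% of its eligible bins. Lrig1 held 69 of its bins, Axin2 23, Rnf43 22 and Rgmb 21. Over the Rgmb bins the level was 81.3% in ISC P0, 80.4% in differentiated P0, 20.7% in ISC P21 and 17.5% in differentiated P21. Over the Axin2 bins it was 68.7%, 71.5%, 16.8% and 20.6% in the same order. Lgr5 itself held 4 shared-loss bins and Smoc2 held 6, while Ascl2 and Olfm4 held none. Within 1000 bp of the start, the promoters of the stem cell markers Lgr5, Ascl2 and Smoc2 were at 1.49% to 6.90% in all 4 libraries and held no shared-loss bin, and the promoter of Olfm4, at 31.2% to 42.9%, held none either.

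Nuclear receptor, xenobiotic, oxidative stress and retinoid genes came next, with 33 of 57 genes and 2.08% of bins. Vdr held 35 bins, Ppard 16, Nqo1 11 and Aldh1b1 10. The Ppard bins were at 64.9% in ISC P0, 59.9% in differentiated P0, 16.8% in ISC P21 and 14.0% in differentiated P21. The Aldh1b1 bins were at 59.2%, 62.9%, 15.3% and 24.7%, with the larger value in differentiated cells at both ages.

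Genes of antimicrobial defence, microbial sensing and antigen presentation had shared-loss bins in 16 of 42 cases and in 1.55% of bins. Pigr held 13 and Nlrp6, an innate sensor that acts in the colonic epithelium, held 12 in its 51 eligible bins. The Nlrp6 bins were at 64.6% in ISC P0, 61.4% in differentiated P0, 9.88% in ISC P21 and 13.3% in differentiated P21. Il22ra1, a subunit of the interleukin 22 receptor, and Duox2, an epithelial oxidase, held 2 bins each.

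Genes of intestinal identity and epithelial structure followed with 13 of 28 and 1.505% of bins. Vil1, which encodes the microvillus protein villin, held 7 bins at 64.9% in ISC P0, 69.0% in differentiated P0, 11.2% in ISC P21 and 14.6% in differentiated P21. Krt19, Epcam and the ETS-family factor gene Ehf held 5 each. The Epcam bins were at 73.8%, 63.1%, 19.3% and 20.3% in the same order, although the Epcam promoter was below 5% throughout, at 4.18%, 2.58%, 2.63% and 2.01%.

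Transport genes had 13 of 35 and 1.44% of bins, led by the potassium channel gene Kcnq1 with 13 bins, the chloride cotransporter gene Slc12a2 with 10, the bicarbonate cotransporter gene Slc4a4 with 9 and the water channel gene Aqp1 with 8. Aqp1 had among the deepest losses of the genes named here, with 67.8% in ISC P0, 78.6% in differentiated P0, 5.12% in ISC P21 and 8.10% in differentiated P21. Slc4a4 kept more, at 83.6%, 83.4%, 31.7% and 43.0%. Goblet cell and mucus genes had 7 of 23 and 1.17% of bins. Among them the mucin gene Muc4 held 6 bins, the sialyltransferase gene St6galnac1 held 5, Muc13 held 3 and Sytl2 held 2. Genes of the suckling period and lipid handling had 16 of 35 and 0.960% of bins, among them 8 at Cpt1a, which brings fatty acids into mitochondria, and 3 each at Cubn, an endocytic receptor, and Fut2, a fucosyltransferase.

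The remaining lists lay at or below the background of 0.484% of bins. Enteroendocrine and tuft cell genes had 2 of 22 and 0.415%, namely Il17rb with 5 bins and the tuft cell factor gene Pou2f3 with 3. Immune cell markers had 2 of 23 and 0.249%. These were Itgam with 4 bins, all upstream of its start, at 59.4% in ISC P0, 54.9% in differentiated P0, 19.9% in ISC P21 and 19.7% in differentiated P21, and Fcer1g with 1. Markers of mesenchyme, endothelium and neural cells had 4 of 23 and 0.203%, with 2 bins at Pdgfrb and 1 each at Tek, Pecam1 and Ret. The part of other cell types in the sorted pools was not tested.

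Short motifs of transcription factors were counted on both strands of each bin, as a description of sequence and not of binding. The HNF4 motif CAAAGTCC was found in 283 shared-loss bins (1.95%), against 0.818% of eligible bins, a ratio of 2.39. The ratio was 2.47 against bins that could have passed taken at the same GC content and number of CpGs. The ETS motif AGGAAGT followed with 7.86% against 4.87% (ratio 1.61, and 1.59 at the same GC content and CpG number). The PU.1 motif GAGGAAGT, which contains the ETS motif and so is not a separate count, was in 2.11% against 1.34%. HNF4 and ETS-family factors are known regulators of intestinal epithelial genes.

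Other motifs differed less. AP-1 (TGANTCA) was in 7.29% against 5.82%, CDX (TTTATNG) in 10.4% against 8.91%, GATA factors (the letters AGATAA) in 11.0% against 9.53%, TCF/LEF (CTTTGAT) in 3.78% against 3.20%, FOXA (TGTTTAC) in 3.11% against 2.71%, HNF1 (GTTAAT) in 5.81% against 5.47%, NRF2 (TGACNNNGC) in 8.50% against 7.31%, the CTCF part (AGGNGGCAG) in 2.47% against 2.10%, KLF (CCNCACCC) in 6.24% against 5.81% and the nuclear receptor hexamer (AGGTCA) in 13.1% against 12.1%. STAT (TTCNNNGAA), TEAD (GGAATG) and RUNX (TGTGGTT) had ratios of 0.982, 0.971 and 1.01. The bins that gained 30 points or more in both populations held the HNF4 motif in 0.615%, the ETS motif in 4.05%, PU.1 in 1.27%, GATA factors in 9.16% and TCF/LEF in 2.75%, all below the shares of the shared-loss bins. They held AP-1 in 7.27%, close to that share, and CDX in 11.8%, FOXA in 4.23%, HNF1 in 6.59%, NRF2 in 9.19%, the CTCF part in 3.18%, KLF in 12.5% and the nuclear receptor hexamer in 14.5%, all above it. The shares of the gaining bins were not taken at the same GC content and CpG number. The gaining bins had a median GC content of 50.5%, against 48% in shared-loss bins. They held 10 or more CpGs in 5.90% of cases, against 0.469%. Among the sequences printed above, the Axin2 bin held a TCF/LEF motif, the first Vdr bin the AGGTCA hexamer and a GATA motif, and none the HNF4 motif, while elsewhere in the Lrig1 region an HNF4 motif was present. At a smaller loss of 30 to 40 points the HNF4 motif was in 1.87% of bins. At 60 points or more it was in 2.43%, over 701 bins. Between the same classes the ETS share went from 8.11% to 7.28%. These classes rest on the values that chose the bins, and the differences were not tested.

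**Figure D5:**
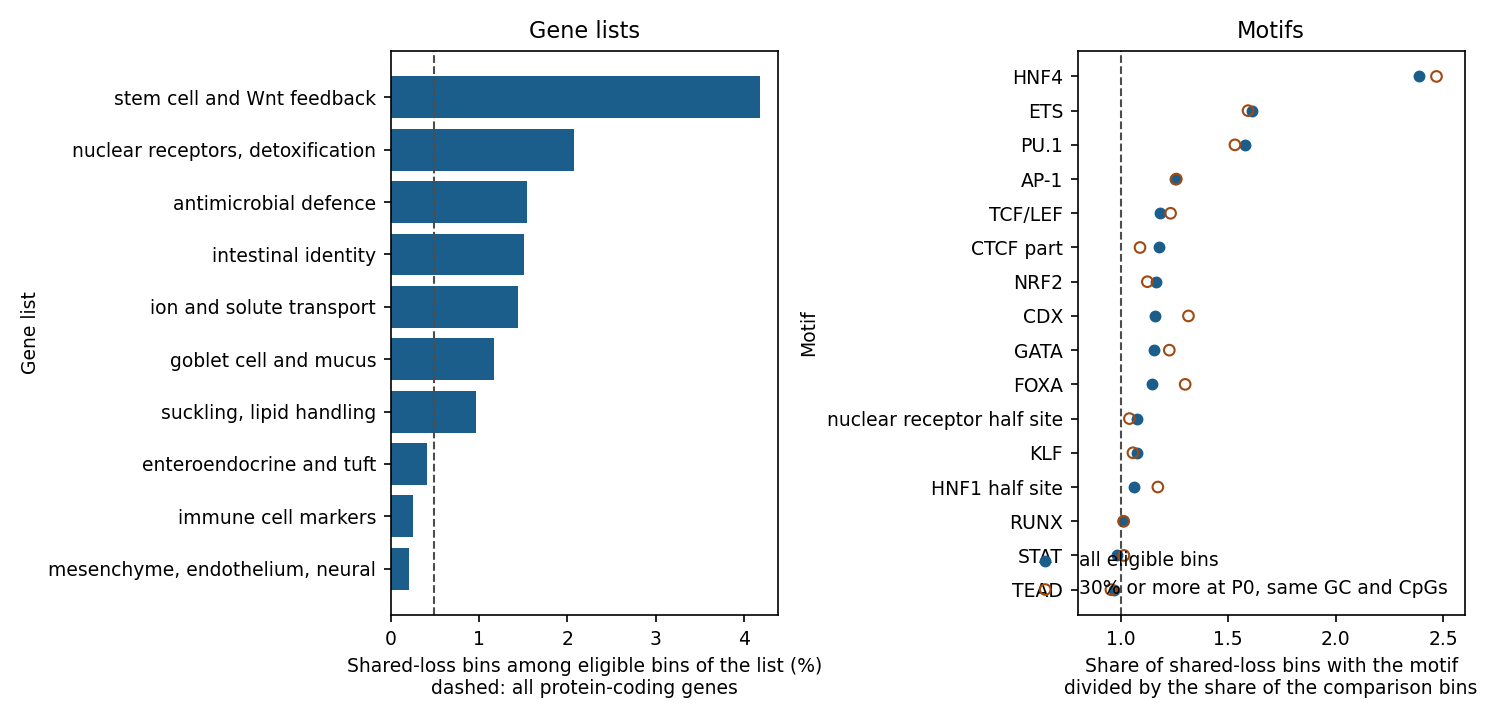
Left, share of eligible bins in or up to 10 kb upstream of the genes of each list that were shared-loss bins (horizontal axis, percent), with a dashed line for all protein-coding genes at 0.484%. Right, share of shared-loss bins holding each motif divided by that of all eligible bins (filled) or of bins at 30% or more at P0 with the same GC content and CpG number (open), with HNF4 highest at 2.39 and 2.47 and a dashed line at 1.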

How the data were processed

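Whole-genome bisulfite sequencing covered 4 pooled libraries, 1 per group. Per the labels and the study's methods, the authors mapped paired-end reads to mm9 with Bismark and Bowtie, with versions not given in the sources used here, nor whether duplicate reads were removed. The authors deposited, for each CpG cytosine, a count of all calls, a count of methylated calls and their fraction. The deposited fraction was not used here, since levels come from sums of the counts.

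Of the listed positions, 0.465% to 0.850% per library matched no CpG of the mm9 sequence and were left out. Both strands were summed over 200-bp bins, with Python 3.11.15, numpy 2.4.6, pandas 2.3.3, scipy 1.17.1 and numba 0.67.0. Genes came from GENCODE M1, by 1 transcript of the longest coding sequence per protein-coding gene. Where a symbol had several records, lists used the one with the most eligible bins. Islands were found in the sequence (29744 autosomal). Fisher's exact test was checked on simulated data. The minimum of 20 calls leaves wide counting error in a single bin.

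The members, the gene lists and the motifs were chosen with earlier results of these data known. Named were the 12 regions with the most bins, the 6 genes nearest to most regions, up to 4 genes per list with the most bins, and the 4 bins closest to the threshold on either side. Of the sequences of the first 6 regions, the one overlapping an exon was not printed. Of the 12 regions, 1 and its gene are not reported here. Alternatives were other thresholds, depths, CpG minima, bin positions, strands, start sites and averages.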

Additional observations from a re-analysis of the deposited data

Results flagged for a closer look

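Chromosome X was left out of the choice of bins. By the same rule 119 of its 91898 eligible bins (0.129%) lost 30 points or more in both populations, against 0.424% on the autosomes. They are given because they lie outside the bins described above, and the difference in share was not tested.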

How the results depend on the processing

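No paired analysis was run, since each group had 1 library and the labels carry no replicate numbers. The counts and medians below are set against their main values of 14487 bins, 12437 regions, losses of 42.5 points in ISCs and 42.1 points in differentiated cells, 26719 bp to the TSS, 3 CpGs, 40.7% of regions with a neighbour within 10000 bp, and 186 and 94 bins called between the populations at P0 and P21. A loss of 20 points gave 38106 bins, 32488 regions, 31.999 and 31.4 points, 28190 bp, 51.8%, and 505 and 205 calls. A loss of 40 points gave 5779, 5041, 51.8 and 51.6 points, 25134 bp, 29.9%, and 76 and 38. A minimum of 40 calls gave 9532 bins, 8277 regions, 25251 bp and 35.3%, and one of 10 calls gave 28165 bp. A minimum of 4 CpGs gave 5213, 4762, 42.4 points in differentiated cells, 24475 bp, a median of 5 CpGs and 26.98%. Starts of all annotated transcripts gave 12490 bp. A difference over 15 points without a test marked 1991 and 1372 bins between the populations, and one over 30 points with the test called 40 and 19. Leaving out bins over 500 calls, shifting bins by 100 bp, averaging CpGs without weights and adding chromosome X moved no count by over 1.5 times and no median out of its interval.

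When bins were chosen on 1 strand and measured on the other, the calls that chose a bin did not give its loss. The forward strand chose 7444 bins, whose loss on the reverse strand was 37.3 points in ISCs and 37.9 points in differentiated cells (3428 bins with 10 calls or more there), and the reverse strand chose 7453, at 38.1 and 37.9 points on the forward strand. On the strand not used, 48.3% and 49.8% of the bins reached 30 points in both populations, and 93.8% and 92.9% were lower at P21 in both. On the choosing strand the losses of the same bins were 43.4 and 42.7 points for the forward choice and 44.0 and 43.2 points for the reverse choice.

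Alternatives chosen after the data were seen were a 40-point loss for lists and motifs, shifted bins for motifs, and single strands and unweighted means for the 12 regions. At 40 points the genes with bins went from 13 to 6 (intestinal identity), 7 to 4 (goblet), 16 to 7 (antimicrobial), 33 to 17 (nuclear receptors), 16 to 6 (suckling), 2 to 1 (immune), 4 to 1 (mesenchyme), 19 to 15 (stem cell and Wnt feedback), 13 to 10 (transport) and 2 to 2 (enteroendocrine and tuft), while all genes went from 22.6% to 11.4%. Motif shares moved by at most 0.872 points. The losses of the 12 regions stayed between 34.9 and 81.3 points, but 8 values moved past a tolerance set from the Wilson intervals and 64 did not. In differentiated cells the Adck3 loss went from 52.4 points to 74.1 points on the forward strand alone. The loss of the Ppard region in these cells went from 54.9 points to 39.6 points on the reverse strand alone. Reads give calls on several CpGs, so calls are fewer molecules than their number.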
